A study of Mus musculus with 6 samples.

Results

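Mammalian cells make reactive oxygen and nitric oxide on purpose with a small set of enzymes, and 9 genes of that set are described here in whole mouse skin. They are the dual oxidases Duox1 and Duox2, their maturation factors Duoxa1 and Duoxa2, the NADPH oxidase catalytic subunits Nox1, Nox4 and Cybb, the partner subunit Cyba, and the inducible nitric oxide synthase Nos2. They were taken by gene symbol, and all 9 were found among the 23951 genes of the table. RNA sequencing compared whole skin of 3 control mice, labelled JunB +/+, with that of 3 JunBΔep mice, labelled JunB dep. All 6 were littermates of the C57Bl/6 strain aged 6 to 7 months. JunBΔep mice lack the transcription factor JunB in cells that express keratin K5, through a Cre under the K5 promoter, so that dermal, immune and other skin cells keep the gene. The labels give no sex, and mice of both sexes were used in the study. Each library is named by its group and its replicate number, 0, 1 or 2.

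Duox1 and Duox2 sit in the plasma membrane of epithelia and release hydrogen peroxide at the cell surface, and each leaves the endoplasmic reticulum only with the help of its maturation factor. Cybb and Cyba form the membrane core of the phagocyte oxidase, which makes superoxide once cytosolic subunits dock on it, whereas Nox4 makes peroxide with Cyba alone. Nos2 makes nitric oxide from arginine and is transcribed in response to inflammatory cytokines in macrophages and keratinocytes.

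The level of a gene is given in FPKM, the fragments per kilobase of transcript scaled to library depth, which allows levels of different genes to be compared. The FPKM values summed to 481078 to 630363 per mouse, and 18418 to 18873 genes were above 0. Junb, the targeted gene, measured 59.3, 72.4 and 56.9 FPKM in control skin, against 129.6, 42.8 and 28.05 FPKM in mutant skin, with replicates always in the order 0, 1, 2. The library labelled JunBΔep replicate 0 was above every control for Junb, although other cells of whole skin keep the gene, so that its level alone does not settle the label. The 5 skeletal muscle markers summed to 1413 FPKM in that library, near the 1340 and 3213 FPKM of the other mutants and far under the 13930 to 17853 FPKM of the controls. These markers were chosen with earlier results of these data known, so their sum does not settle the label either. Results are given with and without this library, and mutant skin stands for the 3 libraries labelled JunB dep, this one included. That library also stood apart in other genes. The 5 mucosal epithelium markers Krt13, Krt4, Krt76, Sprr3 and Pax9 summed to 3798 FPKM in it and to at most 1.41 FPKM in any other mouse. Krt14 and S100a9 were listed at 0 FPKM in it, beside Krt5 at 3725 FPKM and S100a8 at 24456 FPKM, and such zeros may be failed estimates. Xist reached 27.6 FPKM in control replicate 1 with 34.2 and 30.3 FPKM in the mutants numbered 1 and 2, and it stayed at or under 0.0274 FPKM in the other mice. The library labelled JunBΔep replicate 0 was thus the only one of its labelled group without it, and Xist was not balanced between the groups. Cybb and Nox1 lie on the X chromosome, and the part of sex in their values was not tested. The part of these differences in the values of the 9 genes was not tested.

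None of the 9 genes differed between JunBΔep and control skin at an adjusted p below 0.05, by limma on log2(FPKM + 0.5) with Benjamini-Hochberg adjustment over 17021 genes, those whose mean over the 6 mice reached 0.1 FPKM. All 9 passed that filter, and 0 had an unadjusted p below 0.05. Among all genes tested, 1.38% passed the threshold, every one of them lower in JunBΔep. In 0 of the 9 genes were the groups free of overlap, against 14.8% of all genes tested. The fitted log2 fold change, JunBΔep minus control, was positive in 6 of the 9 genes, with a median of 0.11, against a median of 0.03 and a positive share of 53.4% over all genes tested. With 3 mice a group, these p-values measure only the spread between the 6 mice.

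For Duox1, Duoxa1 and Nos2 the distance between 1 library and the others was larger than any other spread among the mice. The library labelled JunBΔep replicate 0 held the highest level of 6 of the 9 genes, against 29.7% of all genes tested. These 6 were Duox1, Duox2, Duoxa1, Duoxa2, Cyba and Nos2. JunBΔep replicate 1 held the lowest level of 4 genes, Nox4, Cybb, Cyba and Nos2, and 17.6% of all genes tested were lowest there.

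**Figure D1:**
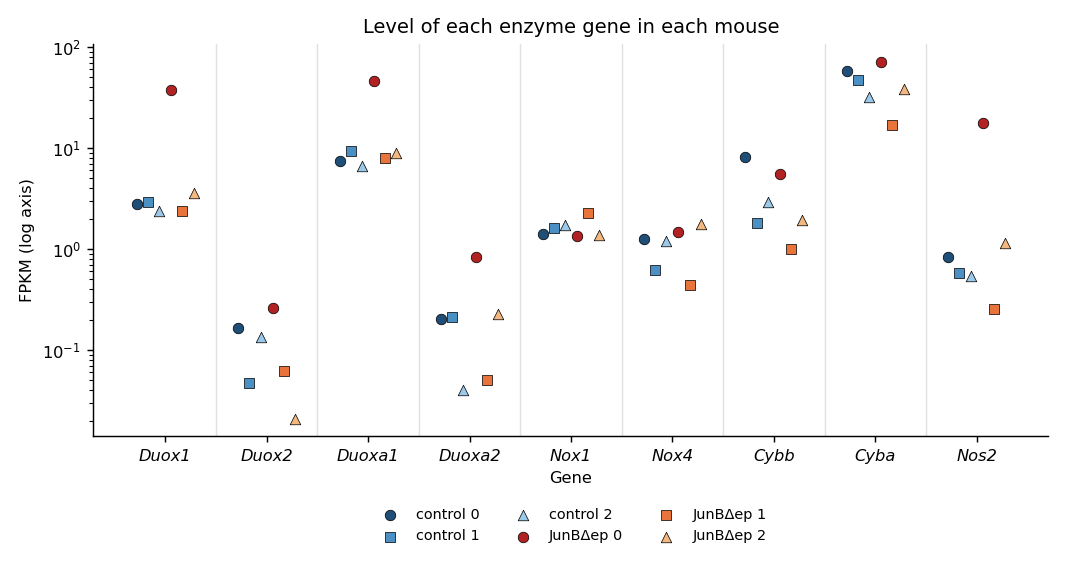
FPKM (log axis) of each of the 9 enzyme genes in each mouse, with controls in blue and JunBΔep in red to orange and 1 symbol per replicate number. Duox1, Duoxa1 and Nos2 in the library labelled JunBΔep replicate 0, at 37.9, 46.6 and 17.7 FPKM, lie far above their other 5 points, while the points of Nox1 span only 1.36 to 2.27 FPKM.

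In control skin the order of mean levels ran from Cyba at 46.0 FPKM ± 13.1 (SD, n = 3), through Duoxa1 at 7.86 ± 1.40, Cybb at 4.31 ± 3.40 and Duox1 at 2.70 ± 0.278, to Nox1 at 1.58 ± 0.161, Nox4 at 1.02 ± 0.348 and Nos2 at 0.654 ± 0.165. Duoxa2 at 0.151 ± 0.0967 and Duox2 at 0.116 ± 0.0617 came last. The ranges of neighbours in this order overlapped for Duoxa1 and Cybb, Cybb and Duox1, Nox4 and Nos2, and Duoxa2 and Duox2, so their order is not settled by these mice. Duox1 and Nox1 were the most even genes among the controls, and Cybb was the least even, with 8.19 FPKM in control replicate 0 against 1.83 and 2.91 in the others.

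Duox1, the dual oxidase of stratified epithelia, was at 2.80, 2.91 and 2.38 FPKM in control skin, against 37.9, 2.40 and 3.55 FPKM in mutant skin. Its level in the library labelled JunBΔep replicate 0 was 14.1-fold the control mean, while JunBΔep replicate 1 lay inside the control range and JunBΔep replicate 2 just above it. The log2 fold change was 1.27 ± 0.97 (SE) with a 95% confidence interval of -1.09 to 3.62 and an adjusted p of 0.722 by limma, and it was 0.10 without that library. The interval holds changes of either direction and is too wide to say that Duox1 did not differ. Sample names fall into number series, with control replicates 0 and 1 and JunBΔep replicate 0 in the series beginning with 23 and the other mice in the series beginning with 27, which the labels do not call a batch. The difference for Duox1 was 3.52 in the first series and 0.25 in the second.

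Duoxa1, the maturation factor of Duox1, was the most abundant of the 4 Duox genes. It was at 7.52, 9.40 and 6.65 FPKM in control skin, against 46.6, 7.92 and 8.997 FPKM in mutant skin. JunBΔep replicates 1 and 2 both lay within the control range, and the library labelled JunBΔep replicate 0 was 5.93-fold the control mean. Its fitted log2 fold change was 0.91 ± 0.67 (SE; 95% confidence interval -0.73 to 2.55; adjusted p = 0.722 by limma), and 0.11 without that library. Within the first and second name series the difference was 2.40 and 0.32. Levels of Duoxa1 and Duox1 moved in parallel over the 6 mice, with a Pearson r of 0.993, but 1 library carries most of this spread. Duoxa1 FPKM exceeded Duox1 FPKM by 2.53-fold to 3.30-fold in 5 mice and by 1.23-fold in the library labelled JunBΔep replicate 0, in which Duox1 was further above its controls than Duoxa1 was.

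Duox2 and its maturation factor Duoxa2 were near the lower end of what the table holds. Duox2 was at 0.167, 0.0476 and 0.135 FPKM in control skin, against 0.260, 0.0620 and 0.0210 FPKM in mutant skin, so the mutant range enclosed the control range. Its log2 fold change was -0.02 ± 0.20 (SE; 95% confidence interval -0.51 to 0.47; adjusted p = 0.977 by limma). Without the library labelled JunBΔep replicate 0 its mean was below 0.1 FPKM and it was no longer tested. Duox2 differed by 0.33 within the first name series and by -0.23 within the second. Duoxa2 was at 0.202, 0.212 and 0.0398 FPKM in control skin, against 0.828, 0.0506 and 0.225 FPKM in mutant skin. The highest of the 6 was again the library labelled JunBΔep replicate 0, at 5.47-fold the control mean, and the lowest was a control. The log2 fold change was 0.32 ± 0.35 (SE; 95% confidence interval -0.53 to 1.18; adjusted p = 0.758 by limma), and -0.03 without that library. Within the name series the Duoxa2 difference was 0.91 and 0.23. At such levels the 0.5 FPKM added before the logarithm compresses fold changes.

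The 4 Duox genes lie side by side on chromosome 2 of the mm9 build, within 68726 bases. In order they are Duox2 (chr2:122104983-122124185, minus strand), Duoxa2 (chr2:122124636-122128621, plus strand), Duoxa1 (chr2:122127927-122139466, minus strand) and Duox1 (chr2:122141408-122173708, plus strand), with positions from GENCODE vM1. Each oxidase starts head to head with its own maturation factor, with 450 bases between the starts of Duox2 and Duoxa2 and 1941 bases between those of Duoxa1 and Duox1. Duoxa2 and Duoxa1 overlap at their 3' ends by 695 bases on opposite strands. The libraries keep strand, but the use of strand in counting is not given in the sources read, so reads in that overlap may have been shared between Duoxa1 and Duoxa2. The genes on either side are Sord, the sorbitol dehydrogenase gene, and Shf, an adaptor protein gene that ends 919 bases beyond Duox1 on the opposite strand. Shf was at 7.02, 9.54 and 5.56 FPKM in control skin, against 36.7, 11.2 and 10.3 FPKM in mutant skin, without overlap between the groups (log2 fold change 1.12, adjusted p = 0.709 by limma). Sord was at 35.2, 28.3 and 25.8 FPKM in control skin, against 12.5, 15.5 and 24.1 FPKM in mutant skin. It was also without overlap (log2 fold change -0.80, adjusted p = 0.499 by limma), as were 14.8% of all genes tested. The library labelled JunBΔep replicate 0 thus held the highest level of all 4 Duox genes and of Shf and the lowest level of Sord.

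**Figure D2:**
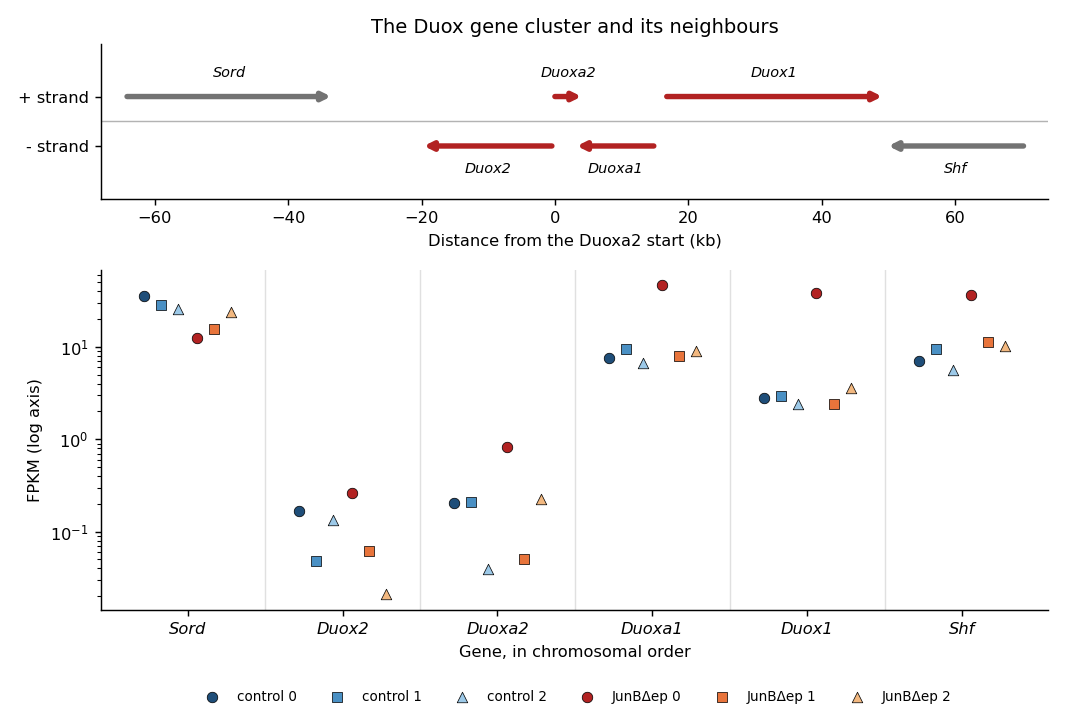
Top, the Duox cluster and its neighbours to scale, as distance in kb from the Duoxa2 start, with an arrow in the direction of transcription for each gene on its strand. Bottom, FPKM (log axis) of the same genes in each mouse, with controls in blue and JunBΔep in red to orange; from Duox2 to Shf the library labelled JunBΔep replicate 0 is the highest point, at 0.260, 0.828, 46.6, 37.9 and 36.7 FPKM, and at Sord it is the lowest, at 12.5 FPKM.

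JunB is a subunit of AP-1, which binds the motif TGANTCA. The 250 bases before the RefSeq starts of Duox1, Duoxa1 and Duoxa2 are therefore shown, while the window of Duox2 is not. They come from the RefSeq promoter table on GRCm38.p6, were matched to mm9 by identical sequence, and are written 5' to 3' along the gene. Capitals mark the motifs found. Those searched, on both strands, were the AP-1 motif TGANTCA, the motif TTCNNNGAA of STAT factors, the kappa B motif and, as the TATA box, the letters TATAAA.
Duox1, chr2:122141158-122141407, plus strand: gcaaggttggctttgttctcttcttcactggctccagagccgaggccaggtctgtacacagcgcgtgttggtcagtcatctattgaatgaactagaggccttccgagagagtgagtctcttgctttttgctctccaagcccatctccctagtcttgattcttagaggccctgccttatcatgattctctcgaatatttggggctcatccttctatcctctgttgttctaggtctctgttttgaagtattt
Duoxa1, chr2:122139467-122139716, minus strand: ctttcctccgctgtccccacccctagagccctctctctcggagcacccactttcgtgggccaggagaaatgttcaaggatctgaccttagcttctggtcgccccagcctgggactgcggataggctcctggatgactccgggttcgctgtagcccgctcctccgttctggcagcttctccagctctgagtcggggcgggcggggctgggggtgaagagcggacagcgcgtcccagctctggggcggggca
Duoxa2, chr2:122124386-122124635, plus strand: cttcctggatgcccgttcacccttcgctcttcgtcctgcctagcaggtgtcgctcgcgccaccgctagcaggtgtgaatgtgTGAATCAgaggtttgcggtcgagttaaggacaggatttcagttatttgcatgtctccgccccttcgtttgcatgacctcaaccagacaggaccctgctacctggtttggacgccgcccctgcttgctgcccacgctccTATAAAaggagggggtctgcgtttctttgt
The Duox1 and Duoxa1 windows held none of these letters, with a GC content of 47.6% and 65.6%. The Duoxa2 window, with 56.4% GC, held TGAATCA at position -168 and TATAAA at position -30, counted back from the start, with no overlap between the motifs. Windows were found for 8 of the 9 genes, all but Nos2. Among the others, the Cybb window held TGAATCA at -139, the Nox4 window TTCTAGGAA at -222 and the Nox1 window a kappa B motif at -91. Of 32851 windows of this length, 6.75% held the AP-1 motif, 7.02% the STAT motif, 3.90% the kappa B motif and 12.4% the TATA box. A match is a run of letters and not a shown binding site.

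Cybb, the catalytic subunit of the phagocyte oxidase (chrX:9012378-9064897, minus strand, mm9), was at 8.19, 1.83 and 2.91 FPKM in control skin, against 5.54, 1.01 and 1.95 FPKM in mutant skin. In both groups replicate 0 was the highest and replicate 1 the lowest, and the groups overlapped. Its fitted log2 fold change was -0.54 ± 0.68 (SE; 95% confidence interval -2.21 to 1.12; adjusted p = 0.791 by limma), -1.10 without the library labelled JunBΔep replicate 0, and -0.00365 without control replicate 0. The difference was 0.43 within the first series of names and -0.83 within the second. Cybb was not shown to differ, and in whole skin the number of cells that express a gene and its RNA per cell cannot be told apart.

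Cyba, the partner that stabilises Cybb, Nox1 and Nox4 in the membrane (chr8:124948672-124956840, minus strand), was the most abundant of the 9 genes in every mouse. It was at 58.3, 47.4 and 32.2 FPKM in control skin, against 71.4, 16.9 and 38.8 FPKM in mutant skin. The highest and the lowest of the 6 levels were both in mutants, replicates 0 and 1. The log2 fold change was -0.30 ± 0.53 (SE; 95% confidence interval -1.60 to 1.00; adjusted p = 0.850 by limma), -0.79 without the library labelled JunBΔep replicate 0 and 0.24 without JunBΔep replicate 1. The Cyba difference was 0.44 within the first name series and -0.32 within the second. Cyba FPKM exceeded Cybb FPKM by 7.12-fold to 25.9-fold, with the lowest and the highest ratio both in controls.

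The other genes of the phagocyte oxidase were read as a list. Of 7 listed partners, 0 passed the test, 6 had a positive log2 fold change and the median was 0.24, and 5 of the 7 peaked in the library labelled JunBΔep replicate 0. Ncf1, the organiser subunit, was at 14.2, 5.19 and 5.03 FPKM in control skin, against 18.4, 3.71 and 7.75 FPKM in mutant skin. Rac2, the leukocyte GTPase of the complex, was at 13.1, 5.17 and 3.96 FPKM in control skin, against 25.4, 2.48 and 5.07 FPKM in mutant skin. Ncf1 and Rac2 both peaked in the library labelled JunBΔep replicate 0, were next highest in control replicate 0 and lowest in JunBΔep replicate 1. BC017643, a chaperone gene of the oxidase, was between 17.4 and 24.9 FPKM in the 6 mice, highest in control replicate 1 and lowest in control replicate 2. Hvcn1, a proton channel gene, was highest in JunBΔep replicate 2 at 4.47 FPKM, against 1.53 to 2.59 FPKM in the other mice.

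Leukocyte markers moved across the mice as well. The 8 monocyte and macrophage markers, all in the table, summed to 484, 235 and 279 FPKM in control skin, against 841, 94.6 and 240.4 FPKM in mutant skin, and 0 of the 8 passed the test. Of 10 neutrophil markers, 9 were in the table, Ly6g was not, and they summed to 1865, 32.2 and 189.5 FPKM in control skin, against 24971, 25.8 and 225.0 FPKM in mutant skin. S100a8 alone made up 24456 FPKM of the largest sum, and S100a9 and Elane were listed at 0 in that library. The order of these libraries turned with the measure, since the median log2 difference of the 9 markers from the control mean was 3.78 in control replicate 0 and 2.56 in the library labelled JunBΔep replicate 0, and 4 of 9 peaked in the latter. Granule genes such as Camp, at 112.6 against 4.37 FPKM, and Ngp, at 195.5 against 21.6 FPKM, were higher in control replicate 0. The part of these cells in the Cybb and Cyba values was not tested.

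**Figure D3:**
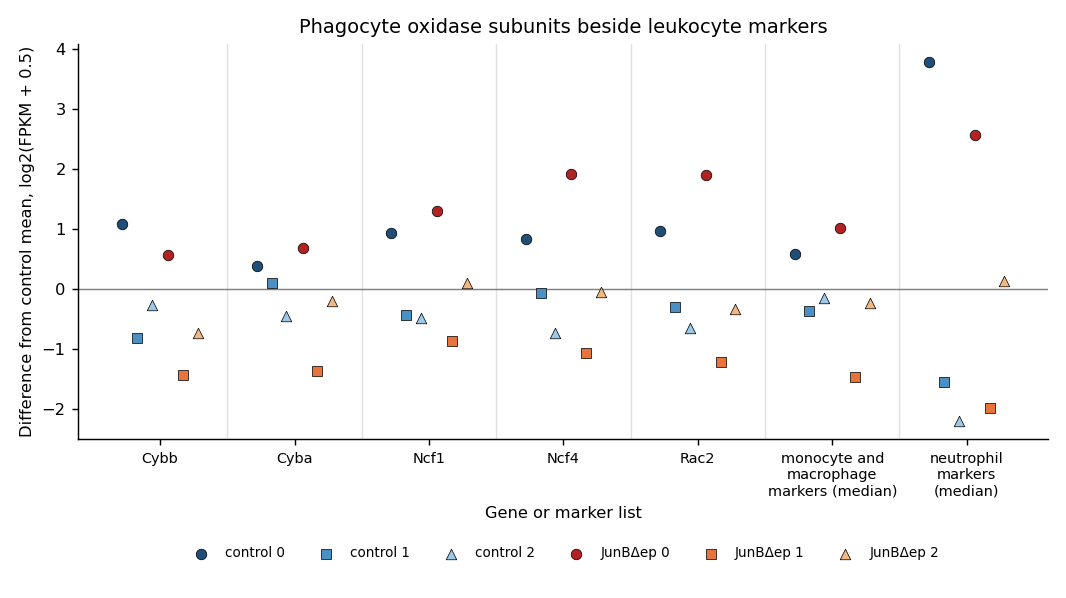
Difference of each mouse from the control mean, in log2(FPKM + 0.5), for Cybb, Cyba and 3 cytosolic partners, and the median of that difference over the monocyte and macrophage and the neutrophil marker lists; controls are blue and JunBΔep red to orange. JunBΔep replicate 1 is the lowest point for each of the 5 genes and for the monocyte and macrophage markers, where its median is -1.48, and the library labelled JunBΔep replicate 0 is above the control mean throughout.

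Nox1, a superoxide-producing oxidase best known in the colon (chrX:130620960-130756495, minus strand), was at 1.40, 1.62 and 1.72 FPKM in control skin, against 1.36, 2.27 and 1.39 FPKM in mutant skin. It was the only one of the 9 genes with its lowest level in the library labelled JunBΔep replicate 0, and its highest was in JunBΔep replicate 1. Its fitted log2 fold change was 0.04 ± 0.24 (SE; 95% confidence interval -0.55 to 0.64; adjusted p = 0.959 by limma), and it was 0.14 without that library. Within the name series it was -0.11 and 0.05. Its level ran opposite to that of Cyba over the 6 mice, with a Pearson r of -0.91 given as a description. Noxo1 and Noxa1 are the organiser and the activator of Nox1. Noxo1 was at 1.16, 2.15 and 4.62 FPKM in control skin, against 2.42, 1.95 and 3.01 FPKM in mutant skin, while Noxa1 was at no more than 0.0699 FPKM and Nox3 was listed at 0 in 5 mice.

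Nox4, which is active without cytosolic partners (chr7:94394606-94547220, plus strand), was at 1.25, 0.624 and 1.20 FPKM in control skin, against 1.49, 0.436 and 1.78 FPKM in mutant skin. Replicate 1 was the lowest in both groups, and the groups overlapped. The log2 fold change was 0.11 ± 0.40 (SE; 95% confidence interval -0.87 to 1.09; adjusted p = 0.929 by limma), and it was -0.03 without the library labelled JunBΔep replicate 0. Within the name series it was 0.50 and -0.22. The 5 fibroblast markers, cells in which Nox4 is found, had negative log2 fold changes in 5 of 5 genes and 0 passed the test. The 5 blood vessel markers also had negative values in 5 of 5, and 0 passed.

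The FPKM of the 5 catalytic oxidase genes Duox1, Duox2, Nox1, Nox4 and Cybb were added up in each mouse to see which enzyme made up most of the transcript pool. The sums were 13.8, 7.03 and 8.34 in control skin, against 46.6, 6.18 and 8.68 in mutant skin. Duox1 held 20.3% to 41.4% of the sum in controls, 81.4% in the library labelled JunBΔep replicate 0, and 38.9% and 40.9% in the other mutants. Cybb held 59.3%, 26.1% and 34.9% in control skin, against 11.9%, 16.3% and 22.4% in mutant skin. The low Cybb share in the library labelled JunBΔep replicate 0 went with the high level of Duox1 there, since its Cybb level of 5.54 FPKM was above 2 of the 3 controls. With Duox1 left out, the sums were 11.01, 4.12 and 5.96 FPKM in control skin, against 8.65, 3.78 and 5.13 FPKM in mutant skin, which overlapped. These shares were not tested.

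**Figure D4:**
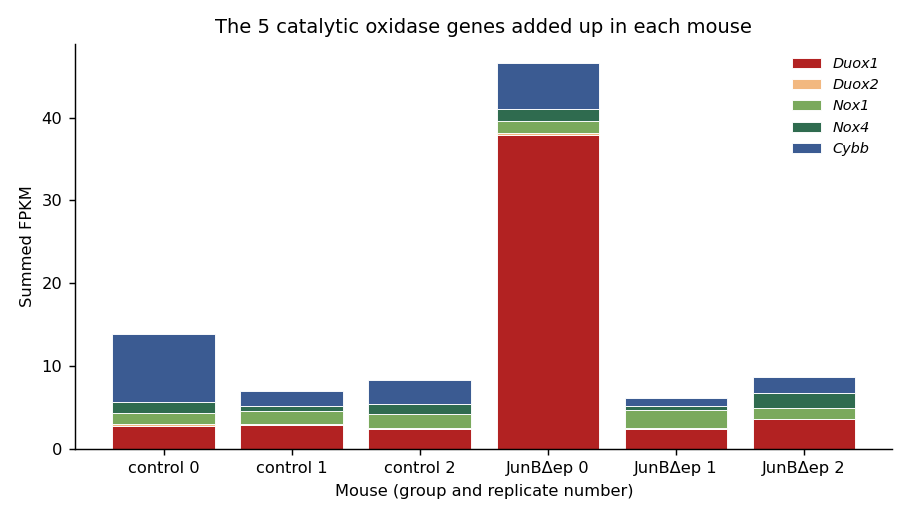
Summed FPKM of the 5 catalytic oxidase genes in each mouse, stacked by gene on an axis that starts at 0. Duox1 fills 81.4% of the bar of 46.6 FPKM in the library labelled JunBΔep replicate 0, and the other 5 bars lie between 6.18 and 13.8 FPKM.

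Nos2, the inducible nitric oxide synthase on chromosome 11 (chr11:78734289-78773756, plus strand, mm9), was at 0.842, 0.586 and 0.535 FPKM in control skin, against 17.7, 0.253 and 1.14 FPKM in mutant skin. The highest and the lowest level of the 6 were both in mutants, and JunBΔep replicate 2 was above every control. The library labelled JunBΔep replicate 0 was 27.1-fold the control mean, and 99.2% of all genes tested had a lower difference from the control mean there. Its fitted log2 fold change was 1.30 ± 1.14 (SE; 95% confidence interval -1.47 to 4.08; adjusted p = 0.724 by limma), and -0.04 without that library. The difference was 3.92 within the first series of names and 0.10 within the second.

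Other genes of nitric oxide synthesis and arginine use were compared as a list of 12, of which 0 passed the test, 4 had a positive log2 fold change and the median was -0.13. Gch1, which makes the tetrahydrobiopterin that Nos2 needs, was at 7.58, 4.58 and 3.90 FPKM in control skin, against 29.1, 4.54 and 5.27 FPKM in mutant skin. Arg1, which competes with Nos2 for arginine, was at 47.04, 31.4 and 30.3 FPKM in control skin, against 174, 18.4 and 23.4 FPKM in mutant skin. Both peaked in the library labelled JunBΔep replicate 0, as did 4 of the 12 genes in all, against 29.7% of all genes tested. Arg2, the mitochondrial arginase, had the largest log2 fold change of the list, 1.86 ± 0.68 (SE; adjusted p = 0.565 by limma), with an unadjusted p of 0.0340. Nos1, the neuronal synthase, alone of the 12 had groups that did not overlap, against 14.8% of all genes tested. Its log2 fold change was -0.56, with an adjusted p of 0.672 by limma.

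Cytokines known to induce these enzymes were read as a list. Of 9 listed, 7 were tested, 0 passed the test, and 8 of 9 peaked in the library labelled JunBΔep replicate 0. The median difference there was 3.00 from the control mean on the log2 scale. The 8 include the listed genes that were not tested, whose mean was below 0.1 FPKM. The share of 29.7% found over all genes tested leaves such genes out, so it is not a like background. Il1b was at 3.36, 3.30 and 2.72 FPKM in control skin, against 406.2, 1.28 and 2.59 FPKM in mutant skin. Il17f, a cytokine of T helper 17 cells, measured 0.0783, 0.0615 and 0.0540 FPKM in control skin, against 10.4, 0.0343 and 0.386 FPKM in mutant skin. Il1a, an alarm cytokine of keratinocytes, measured 5.25, 3.80 and 5.02 FPKM in control skin, against 40.7, 7.16 and 9.57 FPKM in mutant skin. Il1a alone of the 7 tested had groups that did not overlap, against 14.8% of all genes tested (log2 fold change 1.51, adjusted p = 0.673 by limma). Il4, with the only negative log2 fold change, peaked in control replicate 1. Whether these levels bear on Duox1, Duoxa1 and Nos2 was not tested.

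**Figure D5:**
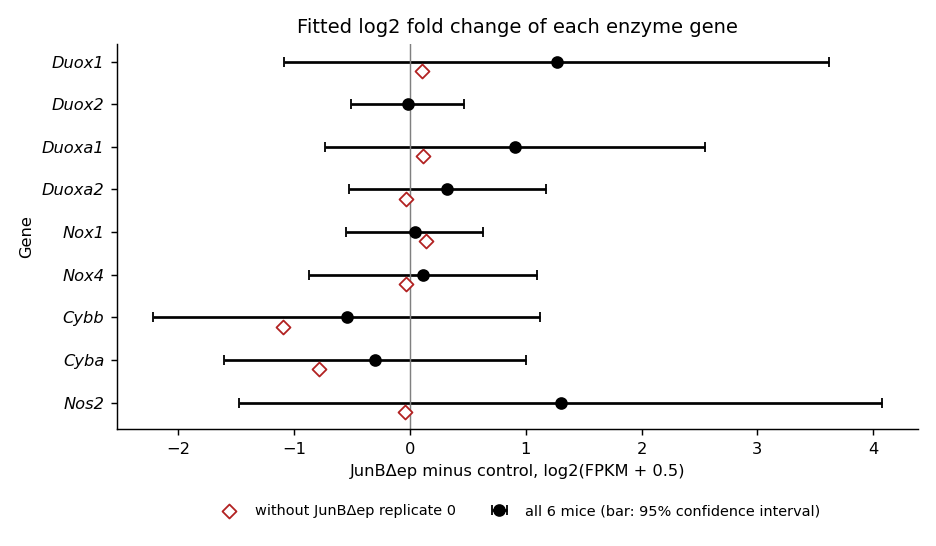
Fitted log2 fold change of each gene, JunBΔep minus control on the log2(FPKM + 0.5) scale, with all 6 mice (black points, bars for the 95% confidence interval) and without the library labelled JunBΔep replicate 0 (open red diamonds; none for Duox2, whose mean then fell below 0.1 FPKM). Every bar crosses 0, and the diamonds of Duox1, Duoxa1, Duoxa2 and Nos2 lie at 0.10, 0.11, -0.03 and -0.04.

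The genes most like each enzyme over the 6 mice were sought by Pearson r of log2(FPKM + 0.5) among 13741 genes whose mean reached 1 FPKM. For Duox1 they were Gsto1 at 0.999, Lce3d at 0.998 and Degs1 at 0.998, and for Nos2 they were Nfkb2 at 0.998, Bcl3 at 0.997 and Sox15 at 0.997. Each of these 6 genes had its highest level in the library labelled JunBΔep replicate 0, as Duox1 and Nos2 did. For Cyba they were Cd86 and Aif1, both at 0.995, and C1qa at 0.987, and for Cybb they included Fam20c at 0.982 and Ly6c2 at 0.977. Cd86, Aif1 and C1qa are genes of macrophages and antigen-presenting cells. The mice share 1 table, and no test was made of these values.

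Peroxides made by these enzymes are used by haem peroxidases and removed by antioxidant enzymes. Of 5 haem peroxidases, 3 were tested, 0 passed and the median log2 fold change was -1.21. Lpo, a peroxidase of secretions, peaked at 159.0 FPKM in control replicate 2 and reached 12.1 FPKM at most in the other mice. Mpo, the granule peroxidase of neutrophils, peaked in control replicate 0 and reached 0.0615 FPKM at most in the others. Of 18 genes that remove superoxide and peroxide, 0 passed the test, 9 had positive and 9 negative log2 fold changes, and the median was 0.03. The largest was that of Gpx2, a peroxidase of epithelia, at 1.38 (adjusted p = 0.722 by limma). Prdx4 alone of the 18 had groups that did not overlap, against 14.8% of all genes tested, at 0.40 (adjusted p = 0.722 by limma).

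Markers of skin and of other tissues were read in the same mice. Of 5 thyroid markers, of the gland where Duox2 is best known, 3 were tested and 0 passed. Tg, the thyroid hormone precursor gene, was at no more than 0.0409 FPKM in any mouse. Tshr, the thyrotropin receptor gene, ranged from 3.67 to 8.59 FPKM in 5 mice, and the library labelled JunBΔep replicate 0 held 0.0363 FPKM. Slc5a5, the iodide transporter gene, was at 0.110, 0.0741 and 0.672 FPKM in control skin, against 0.863, 1.76 and 2.70 FPKM in mutant skin. It alone of the 3 tested was without overlap, against 14.8% of all genes tested (log2 fold change 1.53, adjusted p = 0.316 by limma). Of the 6 keratinocyte markers, 0 passed the test and 3 had positive log2 fold changes, with Krt5 between 1588 and 3725 FPKM. Skeletal muscle markers were lower in JunBΔep, with log2 fold changes of -3.28 to -2.87. The groups did not overlap in 5 of 5 genes, against 14.8% of all genes tested. Of the 5, 4 passed the test, against 1.38% of all genes tested. At the threshold, no gene at all was called lower with a replicate or name series block, without any 1 control, or without JunBΔep replicate 1. Liver markers summed to 1239 FPKM in control replicate 0 and to at most 20.1 FPKM elsewhere. The part of these tissues in the values of the 9 genes was not tested.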

How the data were processed

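Whole skin of 3 JunBΔep and 3 control littermates was profiled by RNA sequencing of stranded poly(A) libraries. The submitters' processing notes name FastQC, TopHat2 2.0.10, Bowtie 1.0.0, SAMtools 0.1.19 and Cufflinks, with the mm9 build. The authors deposited a table of genes by mice in FPKM. The use of strand in counting, and any further scaling of libraries, are not given in the sources read. Without read numbers, no interval for counting error can be had. The authors tested read counts with DESeq2; those counts were not used here.

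FPKM were transformed to log2(FPKM + 0.5). Genes whose mean over all 6 mice reached 0.1 FPKM, 17021 of 23951, were compared by genotype with limma (version 3.58.1, run in R 4.3.3), using its intensity trend and leaving out any block. Two-sided p-values were adjusted over all genes tested by the method of Benjamini and Hochberg, with a threshold of 0.05. The procedure was run on simulated data, and the outcome is not reported here. Python 3.11.15 was used for tables, with pandas 2.3.3, and for drawing, with matplotlib 3.10.9.

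The genes named are the 9 members, Junb, up to 4 genes of each hand-written list with the largest or smallest change or a defining role, marker genes, the 3 genes most like a member in Pearson r for 4 members, and the neighbours of the Duox genes. Xist was added after its values were seen, and a list may exceed 4 where its members are named as a group. Some genes of the lists are not reported here. Members and lists were chosen with earlier results of these data known. Replicate numbers were not treated as pairs, since same-numbered mice did not all deviate together. With 3 mice a group this cannot exclude a pairing. Differences within each series of sample names were chosen after seeing the data. GENCODE vM1 gave gene positions on mm9, and RefSeq on GRCm38.p6 gave upstream windows. Other pseudocounts, filters, scalings, limma settings, blocks and left-out mice were tried as alternatives.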

Additional observations from a re-analysis of the deposited data

How the results depend on the processing

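Across the alternatives, 142 of 158 fitted changes of the 9 genes kept their direction, 16 changed it, 0 passed the threshold, and the lowest adjusted p by limma was 0.4145. The other filters, limma without the trend, robust limma and the replicate block leave the log2 fold change of a tested gene as it is. Their part of the 142 therefore says nothing about direction. Correlations between same-numbered mice were 0.12, -0.23 and -0.43, which with so few mice cannot show whether the replicate numbers pair them. With the replicate block, 0 genes were called lower in place of 235, while the log2 fold changes of the members could not change. With a block for the name series, 0 genes were called lower, and the log2 fold change was 0.058 for Cyba, 0.050 for Duox2 and -0.031 for Nox1, while that of Duox1 was 1.88, Duoxa1 1.36, Duoxa2 0.57 and Nos2 2.01. Under quantile normalization that of Duox2 was 0.040.

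Leaving out 1 mouse or both replicate 0 libraries, the log2 fold change ranged from -0.79 to 0.24 for Cyba, 0.10 to 1.97 for Duox1, 0.088 to 1.35 for Duoxa1, -1.10 to -0.0037 for Cybb, -0.10 to 0.090 for Duox2, -0.033 to 0.60 for Duoxa2, -0.045 to 2.26 for Nos2, -0.15 to 0.14 for Nox1 and -0.13 to 0.51 for Nox4. The median of the members ranged from -0.033 to 0.51. Genes called lower numbered 0 to 254 and genes called higher 0 to 10. Genes called lower numbered 0 without any 1 control, without JunBΔep replicate 1 or without both replicate 0 libraries, and 125 without JunBΔep replicate 0, where the 10 genes called higher arose. The cause was not tested.

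FPKM carries no read number, so levels of Duox2 and Duoxa2 near 0.1 FPKM have unknown counting error. With 3 mice a group and 1 library setting the spread of Duox1, Duoxa1 and Nos2, the intervals of those genes are too wide to show that the groups are alike.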
